A study of Mus musculus with 6 samples.

Results

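The S100 proteins and annexins examined here are 10 genes, chosen by their symbols: *S100a4*, *S100a6*, *S100a8*, *S100a9*, *S100a10*, *S100a11*, *Anxa1*, *Anxa2*, *Anxa3* and *Anxa5*. They are 10 of the 55367 gene symbols listed for every library. RNA was sequenced from kidney cells that were isolated with beads that carry DBA, a lectin used to mark collecting ducts. The labels give 3 groups with 2 libraries each, all labelled Day115: WT mice given saline, ADPKD mice of genotype Pkd1-/- given saline, and Pkd1-/- mice given MMPP, a PEG-incorporated melanin-like nanoparticle that holds manganese. One label speaks of RNA from whole kidney, while the others and the methods name the isolated cells. The methods give the line as male Pkd1 fl/fl;Cre/Esr1+ mice in which tamoxifen activates Cre, and MMPP as repeated intravenous injections. The promoter that drives Cre, the Cre status of the WT mice and the number of mice behind a library are not given in the sources used here, so p-values measure the spread between these libraries, which may be technical. *Pkd1* had 17.7 and 17.2 FPKM in WT, 7.64 and 8.91 in ADPKD and 4.34 and 3.99 in ADPKD+MMPP (FPKM, fragments per kilobase of gene and scaled to the library). Of the principal cell markers, *Aqp2* lay between 677 and 3555 FPKM over the 6 libraries and *Avpr2*, the vasopressin receptor gene, between 0 and 0.0587.

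S100 proteins are small calcium-binding proteins with paired EF hands that mostly act as dimers, while annexins bind acidic phospholipids of membranes when calcium rises. The families meet in fixed complexes: S100A10 binds the amino terminus of annexin A2 and holds it at the plasma membrane, and S100A11 binds annexin A1 in a similar way. S100A8 and S100A9 together form calprotectin, a product of neutrophils and monocytes that injured epithelium can also make. In the kidney, several of these genes are known to be more active in dedifferentiated or injured tubules than in healthy ones.

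The depth implied by the smallest steps between values was 30.6 to 33.1 M reads in the WT and ADPKD libraries and 10.9 to 11.8 M in the ADPKD+MMPP libraries. Of the low read numbers, 35.2% to 37.8% were odd in the former and 7.44% to 7.91% in the latter, and this difference in how the values are made up and the treatment cannot be told apart. Over the 12374 protein-coding genes tested, the signed change after MMPP rose with the share of exon sequence in a single annotated transcript. The Spearman rho across genes was 0.648, against 0.0451 for the change in ADPKD. This share of single-transcript bases is given below for each member whose change after MMPP is described, together with the change after each library was centred within 20 bins of it, called the centred change. Tests with limma covered the 14862 genes that reached 1 FPKM in 2 or more libraries, on log2(FPKM + 1), a scale that understates the changes of low genes. Calls needed a 1.5-fold difference or more and P under 0.05, SE is the standard error of a log2 fold change, and adjusted p-values follow Benjamini and Hochberg over all tested genes. Of the 10 members, 9 were tested, and *S100a4* was not.

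Before the single values, the upstream sequences show the genes whose levels are compared. The promoters printed are those of the 4 members that had the largest fold changes in ADPKD among the called ones with a RefSeq entry, because they rose in the same comparison. Each line gives the 250 bases before the transcription start, 5′ to 3′ on the gene's strand, from RefSeq on GRCm38.p6. Capitals mark an AP-1 site (TGANTCA) or a TATA box (TATAAA).
*S100a6*, plus strand, chr3:90612644-90612893: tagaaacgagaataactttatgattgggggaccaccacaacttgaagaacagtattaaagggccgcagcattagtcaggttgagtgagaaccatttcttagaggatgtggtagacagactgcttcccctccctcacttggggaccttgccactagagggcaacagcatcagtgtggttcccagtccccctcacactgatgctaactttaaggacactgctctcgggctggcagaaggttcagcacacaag
*S100a11*, plus strand, chr3:93520246-93520495: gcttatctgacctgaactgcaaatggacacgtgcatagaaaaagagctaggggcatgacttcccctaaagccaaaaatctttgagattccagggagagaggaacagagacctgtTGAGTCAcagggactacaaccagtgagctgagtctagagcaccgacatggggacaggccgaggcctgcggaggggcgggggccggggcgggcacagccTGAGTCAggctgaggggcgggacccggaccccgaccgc
*Anxa1*, minus strand, chr19:20390672-20390921: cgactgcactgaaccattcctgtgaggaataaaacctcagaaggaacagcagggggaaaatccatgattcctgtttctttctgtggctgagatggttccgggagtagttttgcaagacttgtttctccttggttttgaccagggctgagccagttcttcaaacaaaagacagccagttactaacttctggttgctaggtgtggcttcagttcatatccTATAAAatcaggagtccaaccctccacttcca
*Anxa2*, plus strand, chr9:69453433-69453682: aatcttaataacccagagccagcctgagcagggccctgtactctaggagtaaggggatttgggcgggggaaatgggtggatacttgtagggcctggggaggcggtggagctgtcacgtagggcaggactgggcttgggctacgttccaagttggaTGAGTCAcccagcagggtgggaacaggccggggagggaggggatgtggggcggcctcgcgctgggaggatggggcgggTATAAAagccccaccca

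Of the 10 members, 8 have a promoter in that table, and *S100a10* and *Anxa3* do not. The cAMP response element TGACGTCA, to which CREB binds, and its shorter core TGACG, which lies within the full element, were found on neither strand of these 8 windows, against 1.55% and 17.8% of all 32851 promoter windows of the same length. The AP-1 letters were found in 2 of the 8, *Anxa2* and *S100a11*, against 6.75% of all windows. *S100a11* holds them at 38 to 32 and at 136 to 130 bases before the start, and *Anxa2* at 95 to 89. The TATA letters were found in 4 of the 8, *Anxa1*, *Anxa2*, *S100a4* and *S100a8*, against 12.4% of all windows. A match is a description of letters, and its absence says nothing of a factor's binding elsewhere.

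In ADPKD against WT, 6 of the 9 tested members were called, all higher: *S100a6*, *Anxa1*, *S100a11*, *Anxa3*, *S100a10* and *Anxa2*. Of all tested genes 26.7% were called, made up of 14.2% called higher and 12.5% called lower. The 9 members had a median log2 fold change of 0.90, beside 0.03 over everything tested. In 7 of them both ADPKD libraries lay above both WT libraries, a separation seen in 67.0% of all tested genes, 35.5% in this direction. After MMPP treatment the members parted, with 3 called higher and 3 lower against ADPKD, where 70.9% of all tested genes were called, 27.9% higher and 43.0% lower. The libraries did not overlap for 7 members, 4 higher and 3 lower, against 87.8% of all tested genes, 36.1% higher and 51.7% lower. Their median change was 0.22, beside -0.36 over everything tested. Against WT, 5 members were called higher and 2 lower after MMPP, where 73.9% of all tested genes were called, 30.1% higher and 43.8% lower, and the same numbers of members did not overlap, against 91.9% of all tested genes, 38.9% higher and 53.0% lower. With backgrounds of this size, the counts after MMPP say little about the members as a set. The sum of FPKM over the 6 S100 members was 631 and 733 in WT, 1591 and 2063 in ADPKD and 3139 and 3084 in ADPKD+MMPP. The sum over the 4 annexin members was 365 and 398, then 713 and 816, then 449 and 440. The S100 sum was highest in the treated libraries, where *S100a11* made up 2234 and 2215 FPKM of it, and the annexin sum in the untreated ADPKD libraries. The change of *S100a11* after MMPP that this sum follows was not called when centred or under quantile normalization. In RNA from isolated cells, fewer cells of a type and less RNA per cell cannot be told apart.

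**Figure D1:**
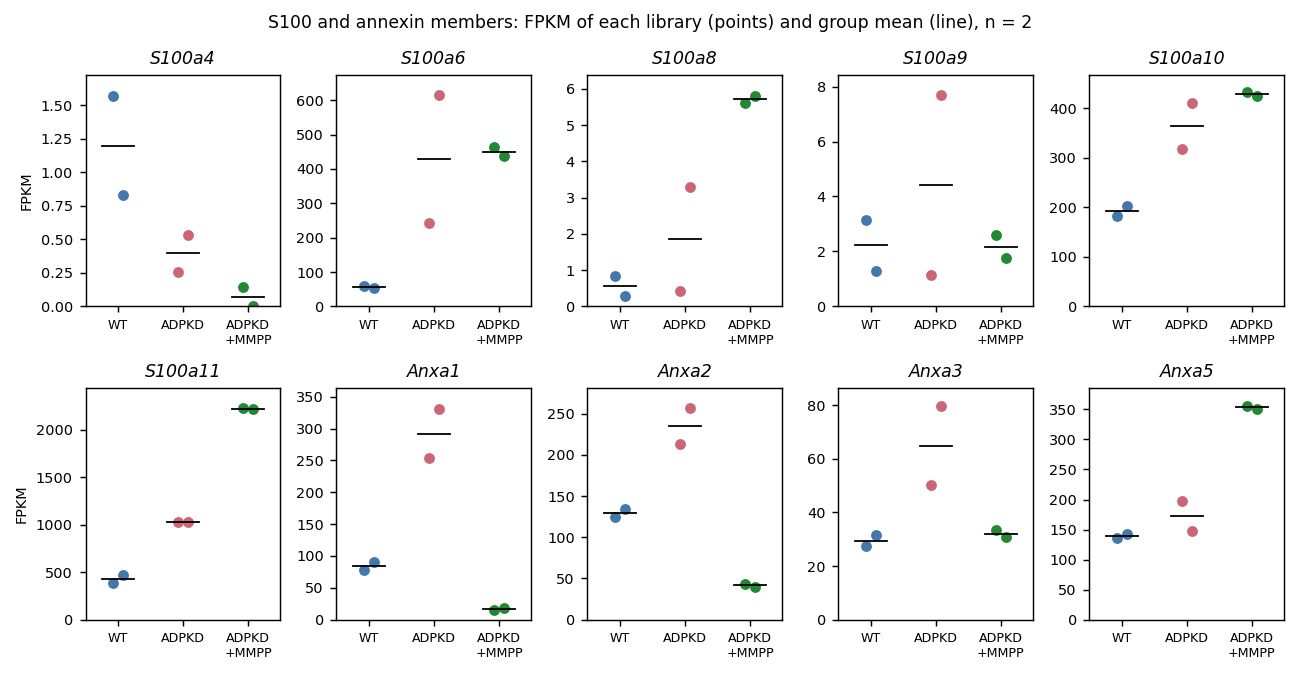
FPKM of the 10 members in each library, with points for single libraries, a line at the mean of the 2 libraries of a group, and a vertical axis that starts at 0 in each panel. *Anxa1* and *Anxa2* are highest in ADPKD and lowest in ADPKD+MMPP, while *S100a11* and *Anxa5* are highest in ADPKD+MMPP.

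*S100a6* encodes calcyclin, an S100 protein of proliferating cells. It lies on chromosome 3 from 90612882 to 90624181 and has 4 annotated transcripts. It had 59.3 and 53.7 FPKM in the WT libraries, 242 and 615 in ADPKD and 463 and 437 in ADPKD+MMPP. Both ADPKD libraries were above both WT libraries, but they differed 2.54-fold from each other, and the treated libraries lay between them. Relative to WT, its log2 fold change in ADPKD was 2.75 (SE 0.416, limma adjusted p = 0.00876), the largest of the 9 members. By mean FPKM it moved from rank 792 of all symbols in WT to rank 72 in ADPKD and 100 in ADPKD+MMPP. After MMPP its log2 fold change against ADPKD was 0.22 (SE 0.416, limma adjusted p = 0.642), with the sign turned at -0.09 when libraries were scaled to a common sum and at -0.175 under quantile normalization. Single-transcript bases make up 66.4% of it, and the centred change was 0.08. Without ADPKD replicate 2 the change was 0.89 and called, and without ADPKD replicate 1 it was -0.45. The treated libraries remained 2.97 above WT on the log2 scale (SE 0.416, limma adjusted p = 0.00105). The ADPKD library with 615 FPKM of *S100a6* also had the lower sum of collecting duct principal cell markers, 964 FPKM against 2533 in the other one, and the part of this in the result was not tested.

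*S100a10* encodes p11, the partner of annexin A2, and is unusual among S100 proteins in that its EF hands do not bind calcium. The gene lies on chromosome 3 from 93555080 to 93564643. It had 183 and 203 FPKM in WT, 317 and 410 in ADPKD and 433 and 424 in ADPKD+MMPP. The groups did not overlap and rose in that order, but the upper ADPKD library came close to the treated ones. The log2 fold change was 0.90 in ADPKD against WT (SE 0.16, limma adjusted p = 0.0134) and 0.25 in ADPKD+MMPP against ADPKD (SE 0.16, limma adjusted p = 0.202). The latter was -0.06 under the common sum and -0.24 under quantile normalization, so its direction depended on the scaling. The centred change was 0.10, at a share of 66.3%.

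*S100a11* encodes calgizzarin, the partner of annexin A1. It was the most abundant member in every library. The gene lies on chromosome 3 from 93520488 to 93526287, has 1 annotated transcript and therefore 100% of its exon bases in exactly 1 transcript. It had 384 and 474 FPKM in WT, 1030 and 1027 in ADPKD and 2234 and 2215 in ADPKD+MMPP. The 3 groups were widely separated, and it ranked 62 among all symbols in WT and 11 in each of the other groups. Relative to WT, its log2 fold change in ADPKD was 1.27 (SE 0.141, limma adjusted p = 0.0045). In ADPKD+MMPP against ADPKD it was 1.11 (SE 0.141, limma adjusted p = 0.000767), but the centred change was -0.05 and that under quantile normalization 0.08, neither of them called. Against WT the centred change was 1.08 and remained called.

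Reads of *S100a11* can also be placed on near-identical copies, since 41.1% of its 50-base words occur in the transcript of *Gm12854* and 23.4% in that of *Gm7665*. *Gm7665* had 39.5 and 39.6 FPKM in WT, 90.0 and 78.2 in ADPKD, and 2.28 and 0 in ADPKD+MMPP. *Gm12854* had 16.4 and 15.9 FPKM in WT, 28.4 and 27.8 in ADPKD, and 4.56 and 4.32 in ADPKD+MMPP. Both copies had higher values in ADPKD than in WT, as *S100a11* did, and were lowest in the treated libraries, where *S100a11* was highest. The values of *S100a11* are uncertain as far as reads were split among the copies, which was not tested.

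*S100a8* and *S100a9*, the subunits of calprotectin, had the lowest read numbers of the tested members. They lie on chromosome 3 from 90668978 to 90670035 and from 90692632 to 90695721, on opposite strands. *S100a8* had 0.848 and 0.279 FPKM in WT, 0.436 and 3.28 in ADPKD and 5.61 and 5.81 in ADPKD+MMPP. These values stand for 18 and 6 reads, 10 and 73 reads, and 46 and 44 reads. Few low read numbers were odd in the treated libraries, so reads there may not be units like those of the others. *S100a9* had 3.13 and 1.30 FPKM in WT, 1.16 and 7.71 in ADPKD and 2.60 and 1.76 in ADPKD+MMPP, from 50 and 21, 20 and 129, and 16 and 10 reads. In ADPKD both genes were high in replicate 2 and within or next to the WT range in replicate 1, so that neither was called.

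Relative to WT, the log2 fold changes in ADPKD were 0.69 for *S100a8* (SE 0.506, limma adjusted p = 0.354) and 0.49 for *S100a9* (SE 0.667, limma adjusted p = 0.619). Leaving out ADPKD replicate 2 gave -0.10 and -0.51, while leaving out ADPKD replicate 1 gave 1.48 and 1.498, both called. After MMPP, *S100a8* was called higher than in ADPKD, at 1.44 (SE 0.506, limma adjusted p = 0.0415), and all treated values lay above the other 4. The centred change was 1.92 (limma adjusted p = 0.014). The call was lost without ADPKD replicate 1, at 0.65, and under 8 further alternatives, while against WT the change of 2.13 (SE 0.506, limma adjusted p = 0.00947) stayed called in all of them.

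The change of *S100a9* after MMPP was -0.46 (SE 0.667, limma adjusted p = 0.548) as deposited, 0.18 under quantile normalization and 1.65 when centred. *S100a9* has 2.49% of its exon bases in exactly 1 transcript and *S100a8* 58.2%. The ratio of *S100a9* to *S100a8* in FPKM was 3.69 and 4.65 in WT, 2.66 and 2.35 in ADPKD and 0.462 and 0.302 in ADPKD+MMPP. The subunits therefore changed order in the treated libraries, where this share and the treatment cannot be told apart.

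A list of 12 other neutrophil genes summed to 2.97 to 3.398 FPKM in WT, to 2.62 and 8.83 in ADPKD and to 3.43 to 5.88 in ADPKD+MMPP. The larger ADPKD sum was that of replicate 2, the library with more *S100a8* and *S100a9*. Of the list's defining genes, *Ly6g* was at 0 in 4 libraries and at most 0.0662 FPKM in the others, and *Mpo* was at 0 in 5. Of the 12 genes, 4 passed the filter, with 2 called higher in ADPKD against WT and 1 called lower after MMPP. Of all tested genes, 14.2% were called higher in ADPKD against WT and 43.0% lower after MMPP.

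*S100a4*, also known as fibroblast-specific protein, marks fibroblasts and some leukocytes. It lies on chromosome 3 from 90603771 to 90606045. It had 1.57 and 0.830 FPKM in WT, 0.259 and 0.534 in ADPKD and 0.145 and 0 in ADPKD+MMPP, from 28 and 15, 5 and 10, and 1 and 0 reads. The order of the groups was the reverse of that of *S100a11*. With no filter it had a log2 fold change of -0.64 in ADPKD relative to WT (SE 0.21, limma adjusted p = 0.15) and -1.02 in ADPKD+MMPP against WT (SE 0.21, limma adjusted p = 0.0206). The latter rests on 1 read in the treated libraries and depends on the pseudocount. Of its 50-base words, 47.4% also occur in *Gm42674*, an overlapping gene on the same strand that was listed at 0 in all 6 libraries.

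*Anxa1* encodes annexin A1, an inhibitor of inflammation downstream of glucocorticoids that acts through formyl peptide receptors. It lies on chromosome 19 from 20373428 to 20390944, with 8 annotated transcripts. It had 77.5 and 89.9 FPKM in WT, 253 and 331 in ADPKD, and 15.9 and 18.1 in ADPKD+MMPP. The 3 groups were separated by wide gaps, and the treated libraries were the lowest. The log2 fold change was 1.78 in ADPKD against WT (SE 0.176, limma adjusted p = 0.00366) and -4.01 in ADPKD+MMPP against ADPKD (SE 0.176, limma adjusted p = 2.84e-05). Its centred change after MMPP was -3.22, and it was called in every alternative tried. Relative to WT the treated libraries were at -2.23 (SE 0.176, limma adjusted p = 0.000113). By mean FPKM the gene moved from rank 522 of all symbols in WT to 121 in ADPKD and 2903 after treatment.

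*Anxa2* encodes annexin A2, a receptor for tissue plasminogen activator and plasminogen in its complex with S100A10. It lies on chromosome 9 from 69453620 to 69491795, with 6 annotated transcripts. It had 124 and 134 FPKM in WT, 213 and 257 in ADPKD and 43.2 and 40.0 in ADPKD+MMPP. Its course was that of *Anxa1* on a smaller scale, with a log2 fold change of 0.85 in ADPKD relative to WT (SE 0.142, limma adjusted p = 0.0113). In ADPKD+MMPP against ADPKD it was -2.47 (SE 0.142, limma adjusted p = 5.15e-05), and its centred change was -2.61. Against WT it was -1.61 (SE 0.142, limma adjusted p = 0.000167).

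*Anxa3*, the gene of an annexin that is abundant in neutrophils and in some epithelia, lies on chromosome 5 from 96793339 to 96845966. It had 27.3 and 31.6 FPKM in WT, 50.1 and 79.7 in ADPKD and 33.4 and 30.7 in ADPKD+MMPP. The treated and WT libraries overlapped, and both ADPKD libraries were above them. It was 1.08 higher in ADPKD on the log2 scale (SE 0.234, limma adjusted p = 0.0237) and 0.96 lower after MMPP, with a log2 fold change of -0.96 (SE 0.234, limma adjusted p = 0.0111). The centred change after MMPP was -0.47 and was not called, at a share of 59.6%. Against WT the treated libraries differed by 0.12 (SE 0.234, limma adjusted p = 0.654), with the sign turned under the common sum and quantile normalization, at -0.26 and -0.07.

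*Anxa5* encodes annexin A5, which binds exposed phosphatidylserine and is used to stain dying cells. It lies on chromosome 3 from 36448923 to 36475894. It had 135 and 142 FPKM in WT, 197 and 148 in ADPKD and 356 and 351 in ADPKD+MMPP. The lower ADPKD library lay next to the WT values, and the gene was not called in ADPKD, at a log2 fold change of 0.30 (SE 0.163, limma adjusted p = 0.226). After MMPP it was called higher, at 1.04 against ADPKD (SE 0.163, limma adjusted p = 0.00181) and 1.34 against WT (SE 0.163, limma adjusted p = 0.000588). Its centred change against ADPKD was 2.04.

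**Figure D2:**
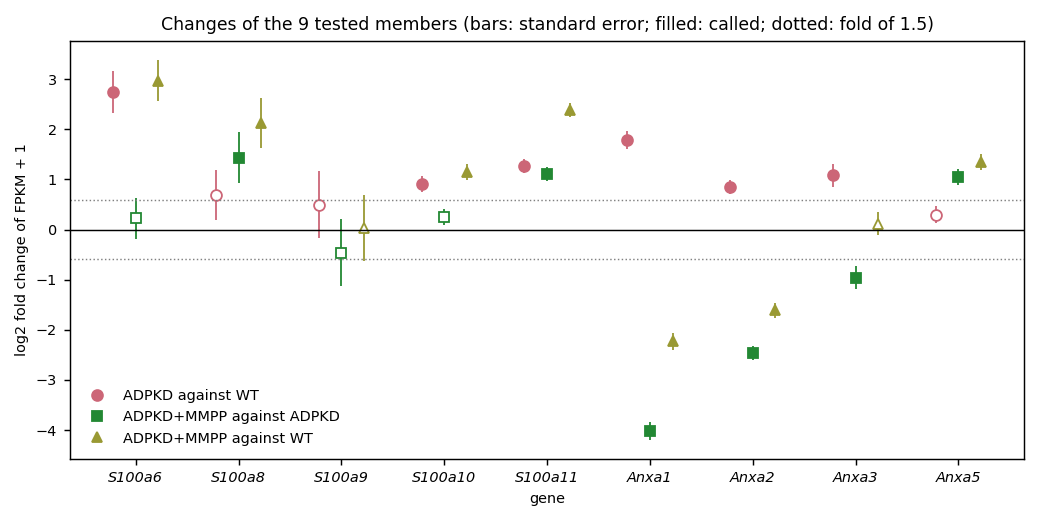
Log2 fold changes of FPKM + 1 for the 9 tested members in the 3 comparisons, with standard errors from limma as bars, filled symbols for called changes and dotted lines at a fold of 1.5. The circles of ADPKD against WT lie above 0 for each of the 9 genes, while the squares of ADPKD+MMPP against ADPKD run from -4.01 for *Anxa1* to 1.44 for *S100a8*. The comparisons share libraries.

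The proportion of *S100a10* to its partner was similar in WT and ADPKD and different after MMPP. The ratio of *S100a10* to *Anxa2* in FPKM was 1.47 and 1.51 in WT, 1.49 and 1.595 in ADPKD and 10.03 and 10.6 in ADPKD+MMPP. The WT and ADPKD ratios overlapped and the treated ones were far above both. Single-transcript bases make up 66.3% of *S100a10* and 63.8% of *Anxa2*. The ratio of *S100a11* to *Anxa1* was 4.95 and 5.27 in WT, 4.06 and 3.10 in ADPKD and 140 and 123 in ADPKD+MMPP, for genes with shares of 100% and 48.8%. With 2 libraries a group, an exact permutation test of such a ratio cannot give a two-sided p below 0.333, so these ratios are given as values.

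**Figure D3:**
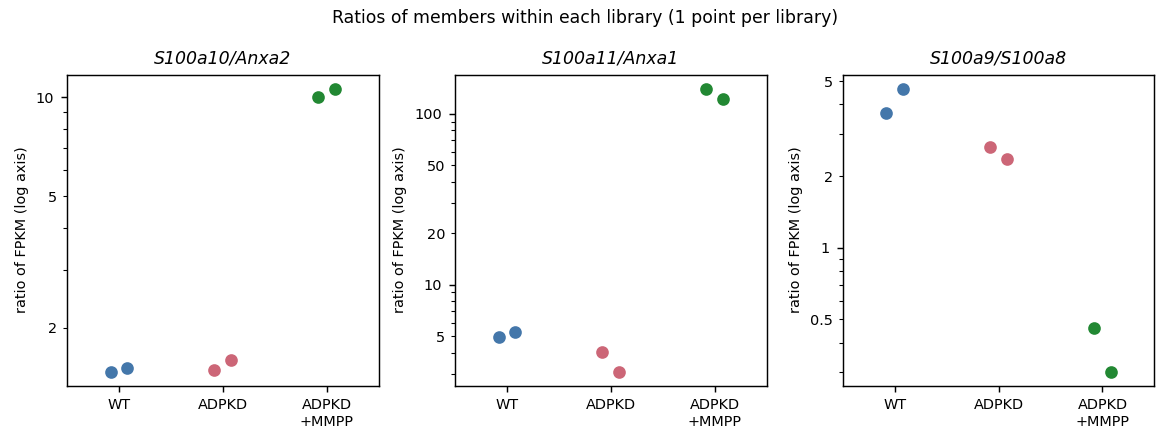
Ratios of FPKM between *S100a10* and *Anxa2*, *S100a11* and *Anxa1*, and *S100a9* and *S100a8* in each library, on log axes, with 1 point per library. In the first panel the WT and ADPKD points lie between 1.47 and 1.595 and the ADPKD+MMPP points at 10.03 and 10.6.

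The members' shares and changes after MMPP are given side by side as a description, and the part of gene structure in them was not tested. *Anxa1* and *Anxa5* have similar shares of exon bases in exactly 1 transcript, 48.8% and 45.4%, and changes of -4.01 and 1.04. *S100a6*, *S100a10* and *Anxa2* have shares of 66.4%, 66.3% and 63.8% and changes of 0.22, 0.25 and -2.47. *S100a11* and *S100a9* stand at the ends of the range, and theirs are the changes that centring turned in sign.

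**Figure D4:**
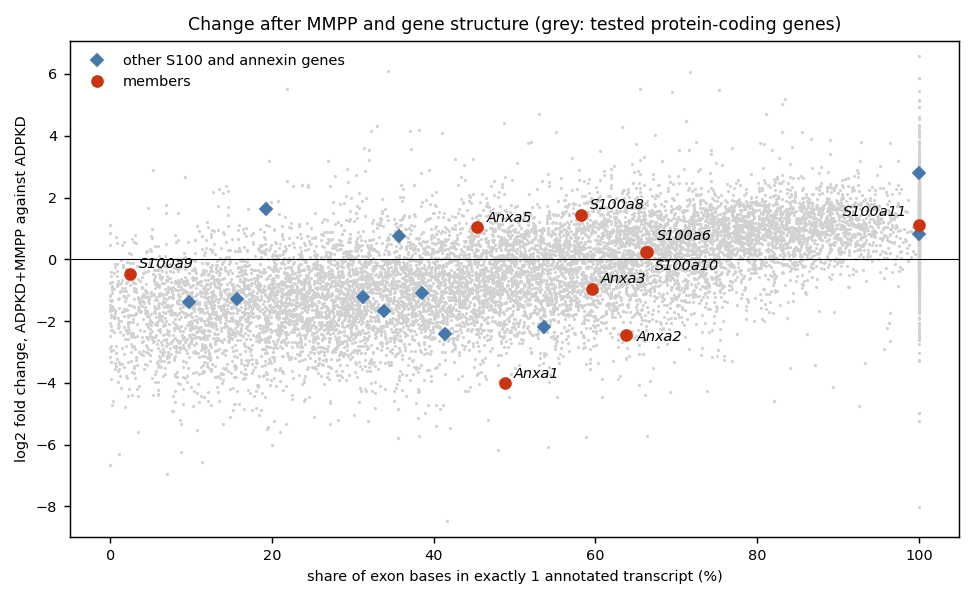
Log2 fold change in ADPKD+MMPP against ADPKD over the percentage of single-transcript exon bases, with a grey point for each of 12374 tested protein-coding genes, red circles for the members and blue diamonds for the other tested S100 and annexin genes. The grey cloud rises to the right, and *Anxa1* and *Anxa2* lie in its lower edge while *Anxa5* and *S100a8* lie in its upper part.

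Outside the 10 members, 11 further S100 genes and 8 further annexin genes were listed, of which 5 and 7 passed the filter. In ADPKD against WT, 2 of these 12 were called higher and 2 lower, near the 26.7% called of all tested genes. *S100a14*, an epithelial S100 gene, had 2.29 and 3.48 FPKM in WT, 52.2 and 31.6 in ADPKD and 16.4 and 21.4 in ADPKD+MMPP, with a log2 fold change of 3.44 in ADPKD (SE 0.292, limma adjusted p = 0.0032). *Anxa8*, known from stratified and injured epithelium, had 0.104 and 0.0687 FPKM in WT, 5.999 and 32.4 in ADPKD and 25.9 and 23.8 in ADPKD+MMPP, with 3.81 in ADPKD (SE 0.679, limma adjusted p = 0.0134). It was nearly silent in WT, with 6 and 4 reads. *S100g*, which encodes calbindin-D9k of calcium-transporting epithelia, had 198 and 139 FPKM in WT, 89.9 and 44.3 in ADPKD and 459 and 436 in ADPKD+MMPP, and *S100a13* had 83.6 and 82.4, then 54.9 and 53.7, then 96.4 in each treated library. Both were called lower in ADPKD, at -1.38 (SE 0.351, limma adjusted p = 0.0375) and -0.60 (SE 0.108, limma adjusted p = 0.0139). *S100g* lost its call without WT replicate 1, at -1.13.

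After MMPP, 3 of the 12 were called higher and 7 lower against ADPKD, where 27.9% of all tested genes were called higher and 43.0% lower. The 3 were *S100g*, *S100a1* and *S100a13*. The 7 were *Anxa7*, *Anxa4*, *Anxa11*, *Anxa9*, *Anxa6*, *S100a16* and *S100a14*, with log2 fold changes from -2.43 for *Anxa7* to -1.08 for *S100a14*. Over both sets together, 8 of 11 tested annexin genes were called lower after MMPP and 1, *Anxa5*, higher, while of 10 tested S100 genes 5 were called higher and 2 lower. The difference between the families was not tested. Among these, the calls of *Anxa3*, *Anxa6*, *Anxa9*, *Anxa11*, *S100a11*, *S100a13*, *S100a14* and *S100a16* were lost when centred. Centring by gene structure, which 11 of the 12 allowed, left 3 called higher, *S100g*, *S100a1* and *Anxa8*, and 2 lower, *Anxa4* and *Anxa7*. *Anxa8* was not called without centring. *S100a13*, *S100a14*, *S100a16*, *Anxa6* and *Anxa9* turned in sign. *Anxa7* kept 31.8 and 31.9 FPKM in WT and 38.2 and 42.4 in ADPKD before it stood at 6.50 and 6.76 in ADPKD+MMPP.

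Genes of the plasminogen system, in which annexin A2 and S100A10 act as a cell surface receptor, and of annexin A1 signalling were listed beside the members, and 11 of 14 passed the filter. In ADPKD against WT, 5 were called higher and 4 lower, where 26.7% of all tested genes were called. *Plau*, the gene of urokinase, had 121 and 100 FPKM in WT, 781 and 835 in ADPKD and 669 and 683 in ADPKD+MMPP. *Plat*, the gene of tissue plasminogen activator, had 861 and 747, then 183 and 135, then 91.0 and 89.2. The activators thus moved in opposite directions in ADPKD, with log2 fold changes of 2.86 (SE 0.138, limma adjusted p = 0.00156) and -2.34 (SE 0.179, limma adjusted p = 0.00291).

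After MMPP, 1 of these 11 was called higher and 7 lower, near the 70.9% called of all tested genes. *Plau* was not called against ADPKD, at -0.26 (SE 0.138, limma adjusted p = 0.138). *Cdh1*, the gene of E-cadherin, stood at 102 and 114.99 FPKM in WT, 242 and 187 in ADPKD and 163 and 164 in ADPKD+MMPP.

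Of 16 genes for S100 receptors and partners, 15 were tested, with 4 called higher and 2 lower in ADPKD against WT and 8 higher and 5 lower after MMPP, beside 26.7% and 70.9% of all tested genes called in either direction. *Ahnak*, a scaffold that binds the annexin A2 and S100A10 complex, had 94.7 and 95.7 FPKM in WT, 178 and 228 in ADPKD and 148 and 138 in ADPKD+MMPP. Its log2 fold change in ADPKD was 1.07 (SE 0.154, limma adjusted p = 0.0075). *Cyba*, a subunit of the NADPH oxidase that S100A8 and S100A9 feed with arachidonic acid, had 45.3 and 36.7 FPKM, then 121 and 98.2, then 350 and 369. *Myh9*, the non-muscle myosin that S100A4 binds, had 82.1 and 76.7, then 100 and 121, then 182 and 181. *Bsg*, a receptor for S100A9, had 181 and 174, then 217 and 199, then 33.8 and 37.3.

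Markers of other cells moved with the groups. In ADPKD against WT, 14.2% of all tested genes were called higher and 12.5% lower. After MMPP against ADPKD, these shares were 27.9% and 43.0%, and the counts below stand beside them. The summed FPKM of 13 macrophage and monocyte markers was 88.2 to 90.8 in WT, 539 to 653 in ADPKD and 1176 to 1229 in ADPKD+MMPP. Within that list 10 of the 11 tested markers were called higher in ADPKD, but after MMPP 5 were called higher and 5 lower. *Itgam* was at 0 in both treated libraries and *Lyz2* at 568 and 565 FPKM there. The sum of 11 proximal tubule markers was 160 to 378, then 105 to 654, then 12835 to 13553 FPKM. *Kap* alone made up 12822 and 12116 FPKM of the treated sums, while *Hnf4a* went from 7.28 and 5.37 FPKM in ADPKD to 0.0351 and 0. The sum of 7 urothelial markers was 5.65 to 5.70, then 56.9 to 77.8, then 78.7 to 86.8. *Krt20* alone made up 44.9 and 59.8 FPKM of the ADPKD sums. Of the 6 tested urothelial markers, 2 were called in ADPKD, both higher, and 5 were called higher after MMPP. Sums for 9 fibroblast and pericyte markers ran from 112 to 139 in WT, 188 to 213 in ADPKD and 248 to 249 in ADPKD+MMPP. Of the 8 tested, 5 were called higher and 1 lower in ADPKD, and 3 higher and 3 lower after MMPP. *Pdgfrb*, a pericyte receptor, went from 38.9 and 31.4 FPKM in ADPKD to 1.051 and 0.837. *Col1a1*, a collagen gene, went the other way, from 32.3 and 33.4 FPKM in ADPKD to 61.6 and 70.1. Sums for 7 endothelial markers ran from 728 to 879, 528 to 546 and 321 to 349. Of them, 1 was called higher and 6 lower in ADPKD, and 0 higher and 4 lower after MMPP. *Plvap* alone made up 208 and 236 FPKM of the treated sums, while *Pecam1* went from 67.5 and 67.9 FPKM in ADPKD to 3.64 and 4.41. Of 9 intercalated cell markers, 8 were called lower in ADPKD and 7 higher after MMPP. Their sums were 447 to 483 FPKM in WT, 71.7 to 238 in ADPKD and 605 to 634 in ADPKD+MMPP. *Rhcg* alone made up 420 and 439 FPKM of the treated sums. Against WT, 1 of the 9 was called higher and 2 lower after MMPP, beside 30.1% and 43.8% of all tested genes. Of 8 thick limb and distal tubule markers, 5 were called lower in ADPKD, and 4 higher and 1 lower after MMPP, with sums of 586 to 1481, 194 to 634 and 272 to 276 FPKM. The sum of 10 collecting duct principal cell markers was 2138 and 2827 FPKM in WT, 2533 and 964 in ADPKD and 5452 and 5473 in ADPKD+MMPP. *Aqp2* alone made up 3555 and 3499 FPKM of the treated sums. Of the 9 tested principal cell markers, 1 was called in ADPKD, higher, and after MMPP 4 were called higher and 2 lower. For these markers and the partner genes above, no centred change is given. Their changes after MMPP cannot be told apart from how the treated values are made up. The part of all these cells in the members' changes was not tested.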

How the data were processed

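Per the labels and the study's methods, the authors aligned reads to GRCm38/mm10 with HISAT2 2.1.0, counted them per gene with featureCounts 1.6.0 and deposited FPKM for each of 6 libraries; the annotation release and the step from counts to FPKM are not given in the sources used here. Positions, exon lengths and transcripts came from GENCODE vM21, also on GRCm38, in which 53253 symbols matched 1 gene. FPKM times exon length fell on whole reads (tolerance 0.02) for 98.1% to 98.9% of values under 20 reads, which gave the depth. At 3 reads or fewer a gene is at the floor.

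All 14862 genes that passed the filter were fitted with limma 3.58.1 in R 4.3.3, over the 6 libraries together, and p-values were adjusted over all of them. The WT and ADPKD replicate pairs did not match within sampling noise (chi-square per gene, averaged, 22.4 for WT and 82.3 for ADPKD). The treated pair had 4.15, but reads there may not be single units, which this statistic takes them to be. It also grows with depth, so the values of the groups are not comparable. The fit was tested on simulated data. Named genes are the 10 members, the tested S100 and annexin genes, the highest genes of other lists and *Pkd1*, besides genes that a count or a shared sequence singled out after their values were seen. The members, lists and tests were chosen with earlier results of these data known. Alternatives covered pseudocount, filter, scaling, trend, groups, thresholds, replicate block, gene structure and leaving out each library. The values of 1 gene that this rule names are not reported here.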

Additional observations from a re-analysis of the deposited data

How the results depend on the processing

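Across the 3 comparisons and 18 alternatives, the number of called members stayed within 1.5 times that given above. Leaving out single libraries, it ran from 6 to 8 in ADPKD against WT and from 5 to 7 in ADPKD+MMPP against ADPKD, and was 7 throughout against WT. For the 12 other S100 and annexin genes it ran from 3 to 6, from 9 to 11 and from 9 to 11. Centring by gene structure gave 5 calls among them after MMPP against ADPKD, where 10 were called without it. The 5 include *Anxa8*, at 1.89, which is not among the 10. The replicate numbers gave deviations that correlated at 0.13, -0.01 and 0.01 between groups, and the labels tie no number to a shared animal or batch. With a replicate block, the members called were 6, 6 and 7 in the 3 comparisons, as without it. Over everything tested, the median change after MMPP was -0.36 as deposited, -0.56 under the common sum and 0.10 under quantile normalization, and 39.3%, 31.9% and 54.0% of called genes were higher. Directions turned as follows, in log2 fold changes, and the causes were not tested. In ADPKD against WT, *S100a1* was -0.05 under the common sum, -0.025 with median-of-ratios factors and -0.15 under quantile normalization. Leaving out single libraries, *S100a1* ran from -0.38 to 0.45, *S100a8* from -0.10 to 1.48, *S100a9* from -0.51 to 1.498 and *Anxa9* from -0.62 to 0.075, each end without 1 of the ADPKD libraries. After MMPP against ADPKD, *S100a6* was -0.086 and *S100a10* -0.06 under the common sum. Quantile normalization gave -0.175 for *S100a6*, 0.18 for *S100a9*, -0.24 for *S100a10* and 0.39 for *Anxa13*. Centring gave 1.65 for *S100a9*, -0.047 for *S100a11*, -0.34 for *S100a13*, 0.15 for *S100a14*, 0.25 for *S100a16*, 0.57 for *Anxa6* and 0.53 for *Anxa9*. Without 1 or the other ADPKD library, *S100a6* ran from -0.45 to 0.89, *S100a9* from -1.47 to 0.54, *Anxa8* from -0.37 to 1.885 and *Anxa13* from -0.66 to 0.16. After MMPP against WT, *S100a9* was -0.23 under the common sum and -0.034 with median-of-ratios factors, and ran from -0.39 without WT replicate 2 to 0.45 without WT replicate 1. *Anxa3* was -0.26 and *S100a13* -0.18 under the common sum, and -0.067 and -0.14 under quantile normalization. Centring gave -1.09 for *S100a13*, 0.62 for *S100a16*, 0.365 for *Anxa6* and 0.255 for *Anxa9*. For *S100a9* it kept the sign but gave 2.01, which was called, where the change was 0.03 without centring.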

Other observations

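The courses most like those of a low and a high member were sought by the distance between log2(FPKM + 1) values, each centred on its mean over the 6 libraries. For *S100a9* the nearest tested genes were *Gm25188*, *Sim2* and *Gm8451*, at distances of 0.70, 0.77 and 0.80. *Sim2*, a transcription factor gene, had 2.72 and 1.68 FPKM in WT, 2.60 and 7.45 in ADPKD and 2.29 and 1.61 in ADPKD+MMPP, with the same single high ADPKD library. For *Anxa2* they were *Ccng2*, *Gm11084* and *Zc3h12c*, at 0.16, 0.18 and 0.19. *Ccng2*, which encodes cyclin G2, had 8.77 and 9.43, then 14.6 and 19.7, then 2.48 and 2.49 FPKM. How many genes lie within a given distance was not counted, and 6 libraries in 3 groups hold little to tell courses apart.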
